A study of Mus musculus with 15 samples.

Results

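The RNA levels of 10 genes of the BCL2 family were followed across fetal liver cells of the mouse that had been transformed with the MLL-ENL oncogene. The members were the rows of the deposited table whose symbol was Bcl2, Bcl2l1, Mcl1, Bcl2a1a, Bcl2a1b, Bcl2a1d, Bcl2l11, Bbc3, Pmaip1 or Bax, which is 10 of 53379 genes. All 10 passed the filter on low values (10 or more normalized reads in 3 or more libraries), as did 12673 genes in all. Polyadenylated RNA was sequenced in 15 libraries of 5 groups, with 3 RNA samples per group.

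Both C1 and C2 were lines grown in medium with IL-3 at 10 ng/ml, and every group carried the retroviral MLL-ENL oncogene. According to the paper, the clones sequenced came from different mice, so a difference between C1 and C2 is also one between mice. The WT groups of C1 and C2 had loxP-flanked but intact Cebpa and Cebpb, the genes of the transcription factors C/EBPα and C/EBPβ, and no further vector. The dKO groups (Cebpa KO, Cebpb KO) had lost both genes after treatment with TAT-Cre, a Cre recombinase that enters cells, and carried a GFP vector, so that the deletion and the vector cannot be told apart in a comparison of dKO with WT. The LAPS group, analysed here in C1 only, had the same deletions and a vector for GFP and the rat C/EBPβ isoform LAP*. Each group was 1 line, and the deleted lines went back to clones that were rare survivors of a culture crisis after the last Cre treatment. The LAPS cells were a transduced population enriched for GFP, not a new clone. Partly deleted clones from several parental clones had been pooled before that treatment, so a dKO line need not descend from the same parental clone as the WT line beside it. The RNA samples of a line were taken at different time points, and p-values therefore measure the spread between samples of 1 line, not between independent deletions.

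Proteins of the BCL2 family decide whether the outer membrane of the mitochondrion stays closed. Survival members (BCL2, BCL-XL from Bcl2l1, MCL1 and A1 from the Bcl2a1 genes) hold back the effectors BAX and BAK, which otherwise open pores that release cytochrome c and start the caspases. BH3-only proteins (BIM from Bcl2l11, PUMA from Bbc3, NOXA from Pmaip1) neutralize the survival members, and NOXA does so mainly to MCL1 and A1. In myeloid progenitors, signals of the IL-3 receptor raise survival members and restrain BIM and PUMA, and A1 is a classical target of NF-κB in the same lineage.

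The libraries matched their labels. Cebpa lay between 903 and 2267 normalized reads in the 6 WT libraries and at most at 0.920 in the 9 others, and Cebpb between 1353 and 1634 in WT libraries and at 0 in each dKO library. LAPS libraries held 2537 to 4216 reads on Cebpb, with the added isoform being of the rat. Cebpe, the gene of a related factor, was between 371 and 517 in WT and between 1653 and 2272 in the deleted groups. Libraries held 9212237 to 13613500 reads on genes, so that 3 reads, taken as the floor, correspond to 2.65 to 4.01 normalized reads. The 8 markers of myeloid progenitors had means of at least 10 in every group and were not level between groups, with sums of 64029 to 65889 normalized reads in C1 WT, 133120 to 155523 in C1 dKO, 126972 to 150700 in C1 LAPS, 55799 to 58740 in C2 WT and 103934 to 120070 in C2 dKO. Mpo, the gene of the granule enzyme myeloperoxidase, alone had means of 14174 in C1 WT and 69702 in C1 dKO, and of 2798 in C2 WT and 22686 in C2 dKO. Mpo and Elane gave most of these sums, and Hoxa9 of the same list lay lower in dKO, at 1938 to 2518 in WT and 1302 to 1618 in dKO of C1 and at 3567 to 4022 and 2590 to 3295 in C2. Meis1 was also lower in C1 dKO without overlap, and in C2 its groups overlapped. Of the lymphoid markers Cd3e, Cd79a and Ms4a1 stayed at or under 3 reads in each library, while Nkg7 was at 24.1 to 46.9 normalized reads in C1 WT, 258.6 to 389.6 in C1 dKO and at most 12.6 in C2. Markers of more mature myeloid cells also differed in level between the groups. The 5 monocyte markers summed to 7700 to 11452 normalized reads in C1 WT and 3468 to 4718 in C1 dKO, and to 3085 to 4888 in C2 WT and 1651 to 2638 in C2 dKO. The sum in C2 joined markers that went opposite ways, with Ccr2 at 2392 to 3720 in WT and 280.9 to 493.8 in dKO, and Adgre1 at 200.2 to 417.8 in WT and 987.6 to 1676 in dKO. The 5 neutrophil markers summed to 1622 to 2196 in C1 WT, 22634 to 25500 in C1 dKO and 5473 to 5772 in C1 LAPS, and to 7067 to 14925 in C2 WT and 10758 to 17815 in C2 dKO. The 5 eosinophil markers summed to 98.8 to 122.7 in C1 WT and to 7633 to 14247 in C1 dKO, with Epx, Prg2, Il5ra and Ccr3 at or under 3 reads in C1 WT, and to 13.6 to 20.9 and 258.4 to 354.8 in C2. The sum in C1 dKO was mostly Prg2 (5480 to 10159) and Epx (1609 to 3554), while Ccr3 stayed at or under 3 reads in every group. The 5 mast cell and basophil markers summed to 98.8 to 133.8 in C1 WT, 2642 to 3042 in C1 dKO, 102.6 to 129.0 in C2 WT and 535.6 to 778.4 in C2 dKO. In C2 the higher sum was mostly Cpa3 (384.9 to 667.5 in dKO), while Ms4a2 was at 47.6 to 69.7 in WT and 5.23 to 12.6 in dKO. The 3 megakaryocyte markers summed to 19.4 to 41.5 and 203.0 to 306.3 in C1, and to 7.97 to 29.4 and 116.6 to 200.9 in C2. They were mostly Itga2b in dKO (156.2 to 264.3 in C1), while Pf4 was at 16.3 to 33.4 in C1 WT and 5.24 to 9.06 in C1 dKO. The 4 erythroid markers summed to at most 18.3 in any library. In C1 LAPS the sums were 3301 to 4697 for the monocyte, 969 to 1933 for the eosinophil, 887 to 1135 for the mast cell and basophil and 55.3 to 68.1 for the megakaryocyte markers. The part of these cell states in the results that follow, Bcl2 and A1 included, was not tested. In bulk RNA, fewer cells of a type and less RNA per cell cannot be told apart.

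Bcl2 was higher in dKO cells of both clones, and its level in C2 dKO exceeded that in any other group. Bcl2 (ENSMUSG00000057329, mm10 chr1:106538178-106714274, minus strand) was at 45.5, 54.1 and 41.8 normalized reads in the 3 C1 WT libraries and at 106.5, 112.2 and 83.8 in C1 dKO. No dKO library of C1 reached down to the WT range. In C2 it was at 124.5, 146.8 and 113.6 in WT and at 816.0, 675.6 and 794.8 in dKO. The C2 WT libraries thus lay above each dKO library of C1. Against WT, Bcl2 rose 2.11-fold in C1 (log2 difference 1.08, SE 0.17, adjusted p = 0.000146) and 5.92-fold in C2 (2.56, SE 0.17, adjusted p = 1.96e-08). The log2 increase was larger in C2 by 1.49 (SE 0.25, adjusted p = 0.000308). These differences are on the log2(normalized reads + 1) scale and come from limma with Benjamini-Hochberg adjustment over all genes tested. Exons of Bcl2 share 558 of 9157 bases with D630008O14Rik on the other strand, which was listed at 0 in every group.

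**Figure D1:**
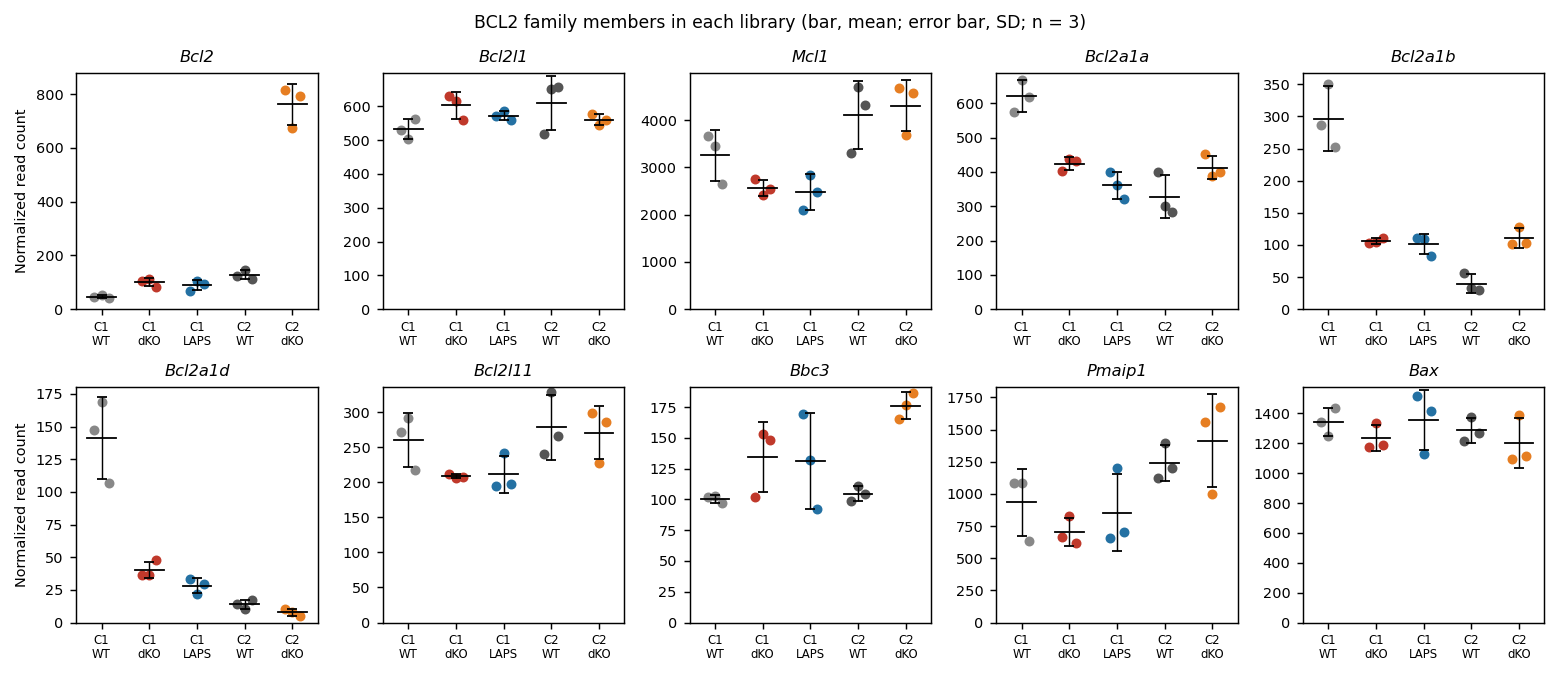
Normalized read counts of the 10 members (vertical axes from 0, 1 panel per gene) in the 3 libraries of each of the 5 groups, with the mean as a bar and the SD as an error bar. Bcl2 stands out in C2 dKO (675.6 to 816.0), while the A1 paralogs are highest in C1 WT and Bax shows no separation of groups.

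The reads of the A1 paralogs together fell in C1 dKO cells and rose in C2 dKO cells. Singly, Bcl2a1a, Bcl2a1b and Bcl2a1d all fell in C1, whereas in C2 Bcl2a1b and Bcl2a1a rose and Bcl2a1d fell. The 3 genes lie close together on chromosome 9 (mm10), Bcl2a1d at chr9:88723285-88731914 on the minus strand, Bcl2a1a at chr9:88956900-88962419 and Bcl2a1b at chr9:89199209-89207827 on the plus strand. They are nearly identical copies, which bears on how far reads can be assigned to one of them. Their coding sequences have 519 bases each, and differ at 11 bases between Bcl2a1a and Bcl2a1b (97.9% identity), at 7 between Bcl2a1a and Bcl2a1d and at 6 between Bcl2a1b and Bcl2a1d. Of the 12 variable positions, 6 fall in the first 90 coding bases, which are shown for that reason, with the positions that vary in capitals (GENCODE vM21, GRCm38; chr9:88957051-88957140 plus strand, chr9:89199360-89199449 plus strand and chr9:88731630-88731719 minus strand):
Bcl2a1a: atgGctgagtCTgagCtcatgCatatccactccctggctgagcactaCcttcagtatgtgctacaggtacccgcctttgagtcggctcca
Bcl2a1b: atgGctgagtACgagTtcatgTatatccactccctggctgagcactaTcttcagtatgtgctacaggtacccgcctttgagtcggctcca
Bcl2a1d: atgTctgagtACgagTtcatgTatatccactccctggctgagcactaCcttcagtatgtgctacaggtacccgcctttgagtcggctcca

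Of the 76-base stretches of each transcript, the length of 1 read, 45.3% of Bcl2a1a, 32.1% of Bcl2a1b and 32.7% of Bcl2a1d occurred in no transcript of another gene. For the other 7 members the share was 88.4% (Bax) to 100%. Reads that fit several places were kept out of genes and made up 17.1% to 19.6% of the reads of a library. Bcl2a1b also shares 401 of its 817 exon bases with Gm29094 on the same strand, which had means of 0.673 to 2.52 normalized reads. Reads ambiguous between genes were kept out as well, at 0.657% to 0.777% of the reads of a library. The Gm29094 values thus do not show how many reads Bcl2a1b lost. The split between paralogs is therefore uncertain, although a pair of reads can be placed by either mate.

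Bcl2a1a (ENSMUSG00000102037) was at 575.3, 667.4 and 619.5 normalized reads in C1 WT and at 402.1, 436.3 and 432.5 in C1 dKO, a fall by 0.55 on the log2 scale (SE 0.12, adjusted p = 0.00228). In C2 it was at 399.3, 300.9 and 282.2 in WT and at 451.9, 387.8 and 399.0 in dKO, a rise of 0.35 (SE 0.12, adjusted p = 0.0357). The C2 groups overlapped, and this call was lost without C2 WT replicate 2 or 3 and without C2 dKO replicate 1 or 3 (adjusted p from 0.0617 to 0.167). Bcl2a1b (ENSMUSG00000089929) was at 286.3, 350.9 and 251.7 in C1 WT and at 103.1, 103.8 and 111.2 in C1 dKO, which is 0.363-fold (log2 difference -1.46, SE 0.21, adjusted p = 5.21e-05). In C2 the order was the reverse, with 56.8, 32.5 and 30.2 in WT and 101.5, 128.3 and 103.0 in dKO, a 2.84-fold rise (log2 difference 1.50, SE 0.21, adjusted p = 4.37e-05). The groups did not overlap in either clone, and the dKO libraries of both clones fell in 1 range of 101.5 to 128.3. Bcl2a1d (ENSMUSG00000099974) was at 147.2, 168.7 and 107.0 in C1 WT and at 36.2, 36.7 and 47.7 in C1 dKO, or 0.293-fold (log2 difference -1.77, SE 0.27, adjusted p = 9.32e-05). It was scarce in C2, with 13.9, 10.5 and 17.4 in WT and 10.5, 7.78 and 5.36 in dKO. The fall in C2 by 0.77 (SE 0.27, adjusted p = 0.0372) kept its call in 3 of 9 alternatives. It was not called by edgeR (adjusted p = 0.0866) or DESeq2 (adjusted p = 0.137), after quantile normalization (-0.52, adjusted p = 0.15), with a pseudocount of 5 (-0.56, adjusted p = 0.0596), without the filter (adjusted p = 0.0844) or with only the groups compared in the fit (adjusted p = 0.108), nor without C2 WT replicate 1 or 3 or C2 dKO replicate 2 or 3.

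The difference between the clones was itself past the threshold for Bcl2a1b (2.96 on the log2 scale, SE 0.30, adjusted p = 3.31e-06) and Bcl2a1a (0.90, SE 0.17, adjusted p = 0.00104), and not for Bcl2a1d (1.00, SE 0.39, adjusted p = 0.0637). The last was called with a pseudocount of 5 (adjusted p = 0.0135), after quantile normalization (adjusted p = 0.0187) and without C1 WT, C2 WT or C2 dKO replicate 3 (adjusted p = 0.0361, 0.0469 and 0.0303). Reads were also summed over the paralogs, since the sum does not depend on how unique reads of the 3 were divided. The sum still counts only reads placed at 1 site. Unique stretches made up 45.3% of Bcl2a1a, 32.1% of Bcl2a1b and 32.7% of Bcl2a1d, so the mix of paralogs enters the sum. The sum was 1058 ± 113 normalized reads in C1 WT and 569.9 ± 25.7 in C1 dKO (SD, n = 3), a fall by 0.89 on the log2 scale (SE 0.12, adjusted p = 3.68e-05). In C2 it was 381.2 ± 77.2 in WT and 531.7 ± 29.1 in dKO, a rise of 0.50 (SE 0.12, adjusted p = 0.00509), and the clones differed by 1.38 (SE 0.18, adjusted p = 3.01e-05). The summed monocyte markers were lower in dKO than in WT in both clones, beside a fall of A1 in C1 and a rise in C2, but in C2 Adgre1 and, in its mean, Csf1r went the other way, and their part in the A1 values was not tested. Bcl2a1a gave most of the reads throughout. Its share of the sum was 58.9% ± 3.9 in C1 WT and 74.3% ± 1.3 in C1 dKO, and 86.0% ± 1.3 in C2 WT and 77.6% ± 3.2 in C2 dKO (SD, n = 3).

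**Figure D2:**
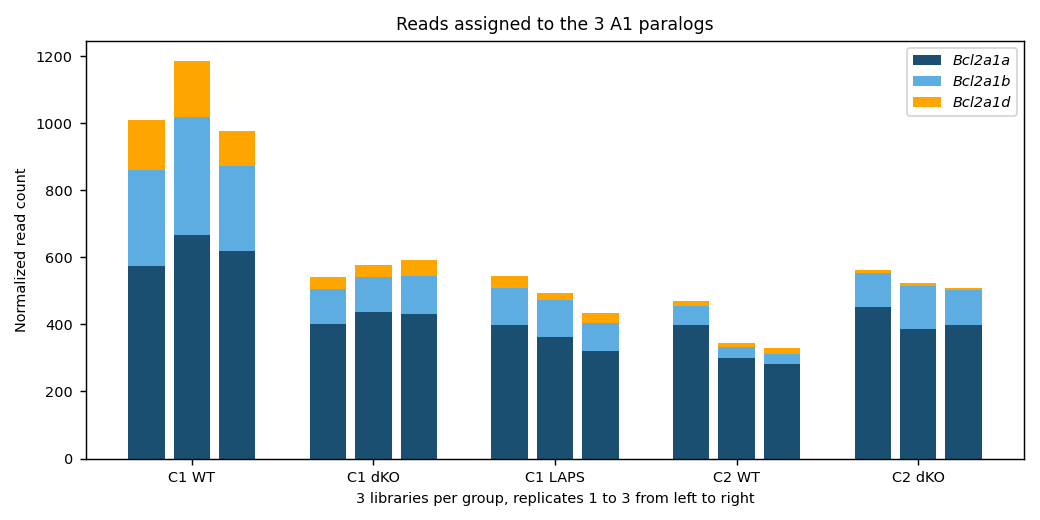
Normalized reads (vertical axis from 0) assigned to Bcl2a1a, Bcl2a1b and Bcl2a1d, stacked, in each of the 15 libraries. The C1 WT libraries sum to 978.2 to 1187 and the C1 dKO libraries to 541.4 to 591.3, while in C2 the WT libraries (329.8 to 470.0) lie below the dKO libraries (507.3 to 563.9).

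Sequence before the A1 genes was examined for words bound by the C/EBP family, to which the deleted C/EBPα and C/EBPβ and also C/EBPε belong. RefSeq windows (GRCm38.p6) of 300 bases, from 250 before to 50 after a start site, were searched for 9 of the members, 14 windows in all. Pmaip1 was left out of this search. The words were searched on both strands, and they had been chosen with the sequences known. The core TTGCNNAA (TTNNGCAA on the other strand) was in none of these 14 windows and in 10.8% of all 32851 windows. The composite word TGATGCAA (TTGCATCA on the other strand), to which dimers of C/EBP and ATF factors bind, was in the windows of the 3 A1 paralogs. It was in none of the other members searched and in 0.895% of all windows. The paralogs are near copies of each other, so their matches are not independent. Both words share the half-site TTGC, and TTGCATCA differs from TTGCNNAA at 1 letter. The 30 bases around the composite word, in capitals, are shown for the paralogs because the word stands in nearly the same surroundings in all 3 (chr9:88956913-88956942 plus strand, chr9:89199222-89199251 plus strand, chr9:88731828-88731857 minus strand):
Bcl2a1a: acgctgtgacaTGATGCAAacagaaattcc
Bcl2a1b: acgctgtgacaTGATGCAAacaaaaattcc
Bcl2a1d: acgctgtgacaTGATGCAAacagaaattcc

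The word began 5 bases after the RefSeq start of Bcl2a1a and Bcl2a1d and 40 bases before that of Bcl2a1b. The starts differ between annotations, and in the GENCODE coordinates given above the word lies inside the gene for all 3. A match of letters is a description and does not show binding, and no binding was measured in the data used here.

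Mcl1 and Bcl2l1, the remaining survival members, were not called in either clone with all libraries. Mcl1 (ENSMUSG00000038612, chr3:95658788-95663176, plus strand), whose short-lived protein is needed by many myeloid cells, was at 3670, 3448 and 2653 normalized reads in C1 WT and at 2749, 2412 and 2551 in C1 dKO. The log2 difference was -0.33 with a 95% confidence interval from -0.64 to -0.01 (adjusted p = 0.0947). In C2 it was at 3312, 4693 and 4327 in WT and at 4675, 3679 and 4567 in dKO, and the difference was 0.07 (-0.24 to 0.39, adjusted p = 0.728). Bcl2l1 (ENSMUSG00000007659, chr2:152780668-152831728, minus strand) lay between 504 and 562 in C1 WT and between 559 and 632 in C1 dKO, a difference of 0.18 (-0.02 to 0.37, adjusted p = 0.142). It lay between 518 and 658 in C2 WT and between 543 and 577 in C2 dKO, a difference of -0.11 (-0.31 to 0.08, adjusted p = 0.365). Bcl2l1 was called in C1 after quantile normalization (0.25, adjusted p = 0.0429), and without C2 WT replicate 1 it was called lower in C2 (-0.22, adjusted p = 0.0481) and different between the clones (-0.40, adjusted p = 0.0135).

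Among the BH3-only genes, Bbc3 was called in C2. Bbc3 (ENSMUSG00000002083, chr7:16308393-16318205, plus strand) encodes PUMA, which p53 and the loss of cytokine induce. It was at 98.6, 111.1 and 104.4 normalized reads in C2 WT and at 165.3, 176.9 and 186.6 in C2 dKO, with no overlap. The rise was 1.68-fold (log2 difference 0.75, SE 0.19, adjusted p = 0.00639). In C1 it was at 101.7, 102.8 and 96.8 in WT and at 101.9, 153.1 and 148.3 in dKO, where dKO replicate 1 lay inside the WT range. The C1 difference of 0.39 (SE 0.19, adjusted p = 0.125) was called without that library (0.58, adjusted p = 0.0321), and the clones did not differ past the threshold (0.35, SE 0.27, adjusted p = 0.372).

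Bcl2l11 and Pmaip1 were not called in either clone. Bcl2l11 (ENSMUSG00000027381, chr2:128126038-128162547, plus strand) lay between 218 and 291 normalized reads in C1 WT and between 207 and 212 in C1 dKO (log2 difference -0.31, 95% interval -0.62 to 0.0027, adjusted p = 0.114), and between 240.0 and 329 in C2 WT and 227 and 298 in C2 dKO (-0.04, -0.35 to 0.27, adjusted p = 0.862). Pmaip1 (ENSMUSG00000024521, on chromosome 18) was at 1082, 1089 and 632 in C1 WT and at 663, 827 and 620 in C1 dKO (-0.38, -0.90 to 0.15, adjusted p = 0.25). In C2 it was at 1122, 1400 and 1199 in WT and at 1560, 1002 and 1678 in dKO (0.16, -0.36 to 0.68, adjusted p = 0.647). Its spread within groups was wide, with C1 WT replicate 3 and C2 dKO replicate 2 far below the other libraries of their groups and C1 LAPS replicate 2 (1199) above its own (655.2 and 706.8).

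The within-group spread of Pmaip1 was shared by Mcl1 and Bcl2l11. The library lowest in Pmaip1 was also the lowest in Mcl1 in 4 of 5 groups and the lowest in Bcl2l11 in 4 of 5, while the highest was shared in 2 of 5 groups with Mcl1 and in 3 of 5 with Bcl2l11. Over the 15 libraries, log2 deviations from the group mean of Pmaip1 correlated with those of Mcl1 (Pearson's r = 0.78, Spearman's rho = 0.73) and Bcl2l11 (r = 0.86, rho = 0.84), and with the share of reads outside annotated genes (r = 0.77, rho = 0.78), which ran from 4.11% to 6.40%. These are descriptions over libraries that share their groups. Without C1 WT replicate 3, the C1 comparison called Mcl1 (-0.47, adjusted p = 0.0203), Bcl2l11 (-0.43, adjusted p = 0.0357) and Pmaip1 (-0.64, adjusted p = 0.0451) as lower in dKO, so that 7 members were called in place of 4. The part of the share outside genes in these values was not tested.

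Bax, the effector, did not separate the groups. Bax (ENSMUSG00000003873, chr7:45461697-45466898, minus strand) lay between 1248 and 1439 normalized reads in C1 WT, 1173 and 1333 in C1 dKO, 1129 and 1517 in C1 LAPS, 1216 and 1375 in C2 WT and 1093 and 1392 in C2 dKO. The difference between dKO and WT was -0.12 in C1 (95% interval -0.36 to 0.12, adjusted p = 0.422) and -0.11 in C2 (-0.35 to 0.13, adjusted p = 0.487). Bax shares 192 of its 1576 exon bases with Gm45808 on the same strand, which had a mean of at most 0.98 normalized reads. Reads that Bax may have lost to this overlap were not measured.

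**Figure D3:**
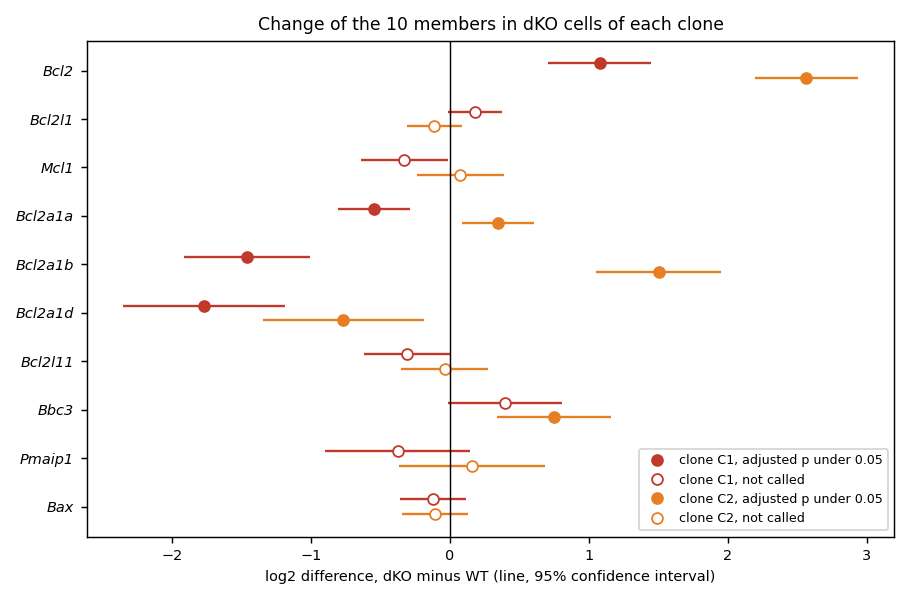
Log2 difference of dKO from WT (horizontal axis, line for the 95% confidence interval) for the 10 members in each clone, with filled points where the adjusted p was under 0.05. Bcl2 lies to the right in both clones (1.08 and 2.56), Bcl2a1b lies on opposite sides (-1.46 and 1.50), and the intervals of Bax include 0 in both.

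In all, 4 of 10 members were called in C1, 1 higher and 3 lower, where 37.0% of all genes tested were called, 17.1% higher and 19.9% lower. In C2, 5 of 10 were called, 4 higher and 1 lower, against 37.6% of all genes, 17.4% higher and 20.1% lower. The members' shares of 4 and 5 in 10 lie near these backgrounds. The count in C1 was 7 without C1 WT replicate 3. In C2 it was 3 without C2 WT replicate 3 or C2 dKO replicate 3, and edgeR and DESeq2 called 4 higher and 0 lower. The balance of all genes depended on the scaling. In C1 there were 2170 higher and 2516 lower under the deposited size factors and 2681 higher and 2052 lower after quantile normalization, and in C2 2211 and 2549 against 2416 and 2289. The median log2 difference of the members was -0.32 in C1 and 0.12 in C2, and that of all genes tested -0.01 and -0.03. The effect differed between the clones for 3 members, Bcl2, Bcl2a1a and Bcl2a1b, and for 29.4% of all genes. Without C1 WT replicate 3 the last count was 5 members.

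Between C1 dKO cells with and without LAP*, no member passed the test. None was called between LAPS and dKO by limma, edgeR or DESeq2, and 0 had an unadjusted p under 0.05 in any of them, where limma called 4.46% of all genes. These were 565 genes, and 276 to 487 when any 1 library of the 2 groups was left out, with the fewest without C1 LAPS replicate 3. Bcl2 was at 68.1, 104.2 and 93.0 normalized reads in LAPS and overlapped the dKO range, with a log2 difference of -0.20 (95% interval -0.57 to 0.17). The A1 paralogs had means below those of dKO, and so no nearer to the WT level. Bcl2a1a was at 399.2, 362.3 and 321.0 in LAPS, each below the dKO libraries, with a difference of -0.24 (-0.50 to 0.03, adjusted p = 0.333). Bcl2a1b was at 110.7, 109.7 and 83.0 (-0.08, -0.53 to 0.37) and Bcl2a1d at 33.5, 22.1 and 29.2 (-0.50, -1.08 to 0.08, adjusted p = 0.358). Bbc3 was at 169.6, 131.8 and 92.1, on both sides of its range in WT. Against WT, with which the dKO comparison shares its control libraries, LAPS cells differed in 4 members, where 32.5% of all genes were called (1796 higher and 2322 lower, or 2521 and 1910 after quantile normalization). Bcl2 was higher by 0.88 (SE 0.17, adjusted p = 0.000969), and Bcl2a1a, Bcl2a1b and Bcl2a1d were lower (log2 differences -0.78, -1.54 and -2.27, adjusted p = 0.000114, 3.29e-05 and 8.45e-06). Mcl1 was at -0.39 (adjusted p = 0.054) and was called by DESeq2 (adjusted p = 0.0387), without C1 WT replicate 3 (adjusted p = 0.0111) and without C1 LAPS replicate 2 (-0.50, adjusted p = 0.0303). Bcl2l11 was called without C1 WT replicate 3 (-0.42, adjusted p = 0.0437) and Bbc3 without C1 LAPS replicate 3 (0.57, adjusted p = 0.0261).

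The WT lines of the 2 clones already differed in Bcl2 and the A1 paralogs, with both Cebp genes intact. Against C1 WT, C2 WT had 2.69 times the Bcl2 (log2 difference 1.43, SE 0.17, adjusted p = 6.85e-06), 0.523 times the Bcl2a1a (adjusted p = 1.43e-05), 0.133 times the Bcl2a1b (adjusted p = 2.31e-08) and 0.105 times the Bcl2a1d (adjusted p = 1.12e-07). Of all genes tested, 41.0% were called between the WT lines. The other 6 members were not called, with Mcl1 at 0.33 (95% interval 0.02 to 0.65, adjusted p = 0.0846) and Bax at -0.06 (-0.30 to 0.18). Without C2 WT replicate 1, Mcl1 (0.48, adjusted p = 0.0193) and Bcl2l1 (0.30, adjusted p = 0.00965) were called too, and Bcl2l1 also after quantile normalization (0.25, adjusted p = 0.0376).

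Levels of different genes were compared per kilobase of exon. The length was that of all exons of a gene, and the order of some genes turned with it. In C1 WT this held for Bax and Mcl1 and for Bcl2l1 and Bcl2a1d. Of single genes, Mcl1 and Bax led in every group by either length. In C1 WT, Mcl1 had a mean of 953 normalized reads per kilobase, Bax 852 and Bcl2a1a 758, and the ranges of these neighbours overlapped, whereas by the longest transcript Bax (1221) lay above Mcl1 (953) with no overlap. Bcl2 was last with 5.15, below Bcl2l11 (32.4). In C1 dKO the order opened with Bax (782), Mcl1 (752) and Bcl2a1a (517) and again closed with Bcl2 (11.0). In C2 WT, Mcl1 (1203) was above Bax (816), which it overlapped by the longest transcript (1169), and Bcl2 (14.0) overlapped Bcl2a1d (16.2) at the end. By the longest transcript, Bcl2 (17.8) had a higher mean than Bcl2a1d there. In C2 dKO, Bcl2 with 83.2 normalized reads per kilobase was the seventh, its range overlapping that of Bbc3 (83.0), and Bcl2a1d was last (9.12). A1 levels count only reads placed at 1 site and in 1 gene. With 32.1% to 45.3% of their stretches unique, they may be understated and the shares of Bcl2 and Mcl1 overstated. Of the summed level per kilobase of the 6 survival members, Bcl2 made up 0.218% ± 0.012 in C1 WT, 0.694% ± 0.11 in C1 dKO, 0.772% ± 0.080 in C2 WT and 3.93% ± 0.072 in C2 dKO (SD, n = 3). Mcl1 made up 40.3% ± 3.7, 47.3% ± 2.3, 66.0% ± 6.9 and 59.5% ± 2.7 in the same groups. The 3 A1 paralogs together made up 54.5% ± 3.4, 43.7% ± 2.5, 26.0% ± 7.3 and 30.8% ± 2.5, so that in C1 WT their sum (1284 normalized reads per kilobase) lay above Mcl1, with no overlap. By the longest transcript the shares of Bcl2 were 0.267%, 0.828%, 0.928% and 4.74%.

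Genes whose group means followed those of a member most closely were sought among 9025 genes with a mean of at least 100 normalized reads, by the root mean square of the log2 differences over the 5 centred group means. For Bcl2 it was Pbx3 (0.38), a cofactor of HOX proteins, which was at 77.6 to 94.8 in C1 WT, 148.4 to 172.1 in C1 dKO, 90.6 to 151.0 in C2 WT and 755.1 to 792.0 in C2 dKO. For Bcl2a1d it was Irf8 (0.38), the factor of monocyte and dendritic cell fate, for Bcl2a1b the complement gene C3 (0.24) and for Bcl2a1a the Fc receptor chain gene Fcer1g (0.07). Irf8 was at 806 to 999 in C1 WT and at 239 to 358 in C1 dKO, and at 72.4 to 97.6 in C2 WT and 61.2 to 76.2 in C2 dKO. C3, like Bcl2a1b, was lower in C1 dKO (14436 to 15966) than in C1 WT (29999 to 36825) and higher in C2 dKO (11720 to 13599) than in C2 WT (5690 to 7531). The closest genes to Bcl2l1, Mcl1, Bcl2l11, Bbc3, Pmaip1 and Bax were Rapgef6, Tmem39a, Atf6b, Hnrnph3, Mga and Rc3h2, at 0.01 to 0.03, where the members' own group means spanned 0.17 to 0.98.

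Other genes of the pathway were taken from 6 lists with 59 genes, of which 54 passed the filter. Of these, 11 rose in both clones or fell in both, as did 14.1% of all genes tested. The median log2 differences given with each list, first in C1 and then in C2, stand beside -0.01 and -0.03 for all genes tested. The counts of each list stand beside 17.1% of all genes tested called higher and 19.9% called lower in C1. In C2 these shares were 17.4% and 20.1%. Among the 11 other BCL2 family genes tested, 3 rose and 3 fell in C1 and 1 rose and 3 fell in C2 (medians -0.16 and -0.15). Bid, whose product is cut by caspase-8 to act on BAX and BAK, rose in both, from 623 to 723 normalized reads in C1 WT to 911 to 1074 in C1 dKO (log2 difference 0.54, adjusted p = 7.09e-05) and from 888 to 964 to between 1156 and 1175 in C2 (0.34, adjusted p = 0.00391). Bad, a BH3-only gene under the control of growth factor kinases, rose in C1 (0.46, adjusted p = 0.00397) and was at -0.19 in C2 (adjusted p = 0.187). Bak1, the second effector, fell in C2 (-0.32, adjusted p = 0.0119), with its groups overlapping at 1448 to 1916 in dKO and 1859 to 2256 in WT, and was at -0.16 in C1 (adjusted p = 0.188). Bcl2l13, a mitochondrial member, fell in both (-0.65 and -0.45).

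Of the 8 genes of the death receptor list, 3 fell in C1 and 5 fell and 1 rose in C2, with medians of -0.12 and -0.41. Tnfrsf10b, the mouse receptor of TRAIL, was at 43.3 to 58.9 normalized reads in C1 WT and 4.20 to 10.6 in C1 dKO (-2.65, adjusted p = 1.34e-05), and at 70.7 to 131.1 in C2 WT and 33.0 to 50.4 in C2 dKO (-1.28, adjusted p = 0.00688). Fas was at 296.5 to 439.2 in C1 WT and 101.7 to 122.7 in C1 dKO (-1.71, adjusted p = 5.97e-07), and at 67.8 to 95.4 and 54.7 to 59.3 in C2 (-0.52, adjusted p = 0.0188). Tnfrsf1b, a TNF receptor without a death domain, fell in both (-1.08 and -0.48). Tnfrsf10b was the 1 gene of the 6 lists that LAPS raised over dKO, to 18.3 to 37.4 normalized reads (log2 difference 1.57, adjusted p = 0.0139). Of the 8 genes of the apoptosome and the caspases, 2 rose and 3 fell in C1, and 3 rose and 1 fell in C2 (medians -0.07 and 0.06). Cycs, the gene of cytochrome c, fell in both, from 1321 to 1605 down to 798.4 to 861.1 in C1 (-0.83, adjusted p = 7.85e-07) and from 1737 to 1877 down to 1313 to 1499 in C2 (-0.38, adjusted p = 0.00141). Of the 8 inhibitors of apoptosis and their antagonists, 1 rose and 4 fell in C1 and 2 rose and 2 fell in C2 (medians -0.34 and 0.13), with Naip2 lower in both (-0.53 and -0.63).

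Of the 10 genes of the IL-3 receptor and its kinases, 3 rose and 4 fell in C1 and 1 rose and 2 fell in C2 (medians -0.23 and -0.06). Jak2, the kinase on the receptor's shared chain, rose from 691.9 to 844.3 normalized reads to between 1455 and 1535 in C1 (0.92, adjusted p = 4.26e-06) and from 572.6 to 636.4 to between 932.2 and 1077 in C2 (0.74, adjusted p = 4.47e-05). Stat5b fell in both (-0.51 and -0.42). Of the 9 genes tested for turnover and transcription of members, 3 fell in C1 and 1 rose in C2 (medians -0.14 and 0.06). Those named in the rest of this paragraph were chosen after their values were seen. The 3 were the NF-κB genes Relb (-2.82, adjusted p = 2.36e-06), Nfkb1 (-0.76, adjusted p = 1.3e-06) and Rela (-0.32, adjusted p = 0.0142). In C2 these were not called (Relb -0.76, adjusted p = 0.0587; Nfkb1 0.19, adjusted p = 0.0658; Rela -0.09, adjusted p = 0.503). The effect differed between the clones for Relb (2.05, SE 0.43, adjusted p = 0.00177) and Nfkb1 (0.95, SE 0.11, adjusted p = 1.16e-05), and not past the threshold for Rela (0.24, adjusted p = 0.212). It also differed for Birc3 (0.88, SE 0.17, adjusted p = 0.000852), an inhibitor of apoptosis and a target of NF-κB that fell in C1 (-0.40) and rose in C2 (0.49). Birc6, of the same list as Birc3, likewise fell in C1 (-0.42) and rose in C2 (0.65), with a difference of 1.07 (adjusted p = 0.00049). Trp53, the gene of p53, was the gene of the turnover and transcription list that rose in C2 (0.49, SE 0.10, adjusted p = 0.000847).

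**Figure D4:**
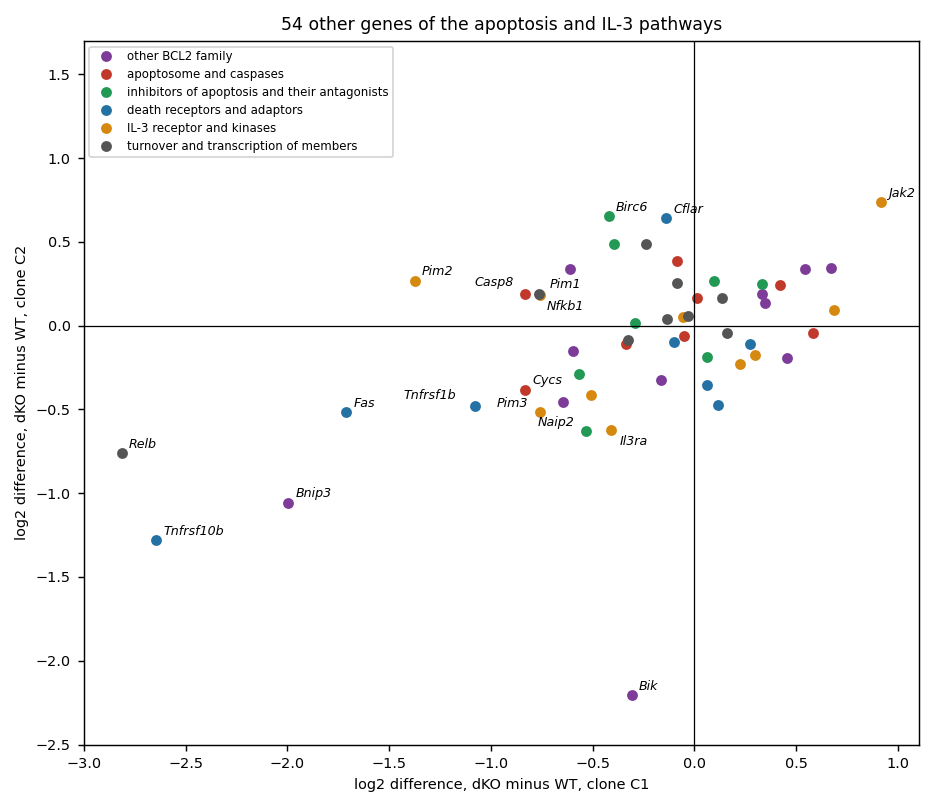
Log2 difference of dKO from WT in C1 (horizontal axis) and in C2 (vertical axis) for 54 genes of 6 pathway lists, coloured by list and named where the difference was over 0.7 in C1 or 0.6 in C2 in size. Tnfrsf10b (-2.65 and -1.28) and Fas (-1.71 and -0.52) lie in the lower left, Jak2 (0.92 and 0.74) in the upper right.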

How the data were processed

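RNA from 15 samples was sequenced by the authors with a stranded, paired-end protocol, aligned to mm10 with STAR 2.5.3a, counted per gene with HTSeq 0.10.0 and divided by size factors of DESeq2 1.26.0. Each deposited signal value is therefore a read count over the library's size factor. The annotation and strand setting of the counting were not given in the sources used here. Of 18 columns, 3 matched no sample and were not used. The 5 rows that name no gene held 22.4% to 26.2% of the reads and were left out. Whole reads were recovered (100% of low values within 0.1 of a whole read, size factors 0.747 to 1.13).

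Values were tested as log2(normalized reads + 1) with limma 3.58.1 (R 4.3.3), with 1 mean per group, a trended prior, all 15 libraries and Benjamini-Hochberg adjustment over the 12673 genes that had 10 or more normalized reads in 3 or more libraries. The threshold was an adjusted p of 0.05. Fits with edgeR 4.0.16 and DESeq2 1.42.0 on the recovered reads, other pseudocounts, scalings and filters, and fits without single libraries were alternatives. Scripts were tested on simulated data. The members, gene lists and tests were chosen with earlier results of these data known. All 10 members were named, and of the pathway lists up to 8 genes that rose in both clones or fell in both, by the largest mean log2 difference, with Bak1, Bid and Bad. Bcl2l2 has 2 rows, and the one with more reads was used. Positions are from GENCODE vM21 and promoters from RefSeq.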

Additional observations from a re-analysis of the deposited data

Results flagged for a closer look

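The effect of the dKO differed between C2 and C1 for 3 members, by the test of the difference itself in limma. For Bcl2 the log2 difference of dKO from WT was larger in C2 by 1.49 (adjusted p = 0.000308), with a rise in each clone. For Bcl2a1b it was larger in C2 by 2.96 (adjusted p = 3.31e-06), with a fall in C1 and a rise in C2 in which no dKO library overlapped its WT group. For Bcl2a1a it was larger in C2 by 0.90 (adjusted p = 0.00104). All 3 remained past the threshold under each alternative and without each single library. The WT lines differed in the same genes, and the WT level enters the difference of each clone.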

How the results depend on the processing

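The numbers 1 to 3 of the RNA samples were not taken as pairs, since the methods of the study name no such block. In no comparison did every same-numbered pair correlate above 0.1. Deviations of WT and dKO correlated at -0.019 to 0.127 in C1 and -0.174 to 0.057 in C2. Those of dKO and LAPS correlated at -0.13 to 0.099, of WT and LAPS at -0.045 to 0.297 and of the WT lines at -0.020 to 0.208. With the replicate block, 4557 genes were called in C1, 4619 in C2, 3583 for the difference and 488 between LAPS and dKO, and the counts of members did not move. In C2, 3 members were called without the filter and 3 with only the groups compared in the fit, where Bcl2a1a and Bcl2a1d were no longer called; fewer libraries enter the second fit, and the cause in the first was not tested. Without single libraries, the members called ran from 4 to 7 in C1 (7 without C1 WT replicate 3), from 3 to 5 in C2 (3 without C2 WT replicate 3 or C2 dKO replicate 3) and from 3 to 5 for the difference between clones (5 without C1 WT replicate 3), and from 4 to 6 both for LAPS against WT (6 without C1 WT replicate 3) and between the WT lines (6 without C2 WT replicate 1). All genes called between LAPS and dKO ran from 276 to 487 against 565, and were 333, 278, 366, 297 and 276 without dKO replicates 1, 2 and 3 and LAPS replicates 2 and 3.

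Changes of sign touched values near 0 that were not called, with 1 exception: with the paralogs summed, the C2 difference of Bcl2a1d, -0.77 alone, became 0.50. After quantile normalization the difference in C2 was 0.028 for Bcl2l11, Bax differed between clones by -0.097 and between the WT lines by 0.0017. Without single libraries, log2 differences of dKO from WT in C2 ran from -0.073 to 0.18 for Mcl1 and from -0.14 to 0.088 for Bcl2l11, and the difference between clones from -0.095 to 0.079 for Bax. LAPS against dKO ran from -0.17 to 0.052 for Mcl1, -0.15 to 0.056 for Bcl2a1b, -0.089 to 0.064 for Bcl2l11, -0.26 to 0.18 for Bbc3 and -0.035 to 0.40 for Pmaip1. LAPS against WT ran from -0.41 to 0.023 for Pmaip1 and from -0.085 to 0.13 for Bax, and the WT lines differed by -0.033 to 0.19 in Bcl2l11. Bcl2a1d kept its call in C1, Bcl2, Bcl2a1a and Bcl2a1b kept theirs in C1 and for the difference between clones, and Bcl2, Bcl2a1b and Bbc3 theirs in C2, under all 9 alternatives and without each library. Counted over every member, comparison and setting, 915 values kept direction and call, 22 gained and 16 lost a call and 25 changed sign. The longest transcript length moved 15 of the shares of survival RNA by more than their SD.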
